A study of Mus musculus with 12 samples.

Results

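Expression was examined for 10 genes of the oxidative stress response in mouse skin wounds, of the 55487 genes in each deposited table. They are Hmox1, Nqo1, Gclm, Gclc, Srxn1, Txnrd1, Slc7a11, Prdx1, Sod2 and Nos2, and they were taken by gene symbol from a set drawn up with earlier results of these data known. All 10 were found, each in 1 row, and all 10 passed the filter on low values in every comparison. The wounds, 2 per animal, were full-thickness punch wounds 6 mm wide in the back skin of male C57BL/6JNarl mice aged 6 weeks. In the sham group, 200 µL of Pluronic F127 gel (25% in saline) was put on the wound once a day. In the CAP group, the gel carried 10 µM capsaicin (CAP), the pungent agent of chili peppers and the activator of the TRPV1 channel. Each treatment was sampled at day 3 and day 6 with 3 libraries, which makes 12 libraries in 4 groups. Both arms were wounded and both received the gel, so the comparison holds the effect of CAP within gel-treated wounds, and unwounded skin was not analysed here. The sources do not say if the libraries of a group stand for different animals or were pooled, so p-values measure the spread between libraries.

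NRF2, encoded by Nfe2l2, is a transcription factor that is kept low by KEAP1, the adaptor that presents it for degradation. Electrophiles and oxidants modify KEAP1, NRF2 then enters the nucleus, pairs with a small MAF protein and binds the antioxidant response element, while BACH1 occupies such elements and represses Hmox1 and others. The targets make and recycle glutathione and thioredoxin, reduce quinones and break down heme, and in a wound they are known from keratinocytes at the edge and from macrophages. Sod2 and Nos2 respond mainly to inflammatory signals through NF-kB. Sod2 is the superoxide dismutase of mitochondria, and Nos2 is the inducible nitric oxide synthase of activated macrophages, neutrophils and keratinocytes.

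The antioxidant response element was looked for in the promoters, because it is the sequence through which these genes are grouped. RefSeq windows from 250 bases before to 50 bases after a start site (GRCm38.p6) were matched for 7 of the 10 genes by symbol, and those of Hmox1, Gclc and Nos2 were not among them. The 7 matched genes had 9 windows, 3 of them of Txnrd1. The core TGACNNNGC, read on both strands, was in 12.39% of 32851 windows and in 4 of the 9. Those 4 were of Gclm, Prdx1, Srxn1 and Txnrd1. A looser form, TGANNNNGC, was in 41.34% of windows and in 6 of the 9, from 5 genes. The related AP-1 motif TGANTCA was in 7.81% of windows and in 2 of the 9, of Prdx1 and Srxn1. Stretches upstream of the start are given on the gene's own strand, with the element in capitals. In Gclm, Prdx1 and Txnrd1 the capitals are the core read on the other strand. In Srxn1 they are the looser form, whose first bases overlap an AP-1 motif, and the core of Srxn1 lies after the start. In Prdx1 an AP-1 motif overlaps the core in the same way.
Gclm: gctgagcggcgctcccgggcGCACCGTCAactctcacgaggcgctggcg
Prdx1: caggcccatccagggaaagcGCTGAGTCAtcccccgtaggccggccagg
Txnrd1: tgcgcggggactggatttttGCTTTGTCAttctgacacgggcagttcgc
Srxn1: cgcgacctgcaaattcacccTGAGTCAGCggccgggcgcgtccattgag
The Gclm stretch is chr3:122245403-122245451, with the element at -134 to -126 from the start. The Prdx1 stretch is chr4:116685446-116685494, with the element at -133 to -125. The Txnrd1 stretch is chr10:82859094-82859142, with the element at -92 to -84 from one of 3 annotated starts. The Srxn1 stretch is chr2:152105459-152105507, with the element at -45 to -37. All 4 genes lie on the plus strand. A match describes these letters and says nothing of binding.

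Expression is given in TPM, an abundance corrected for transcript length and scaled to a common total per library, so levels can be set side by side between genes. Hmox1 was the most abundant of the set with a mean of 610.1 TPM over the 12 libraries, rank 185 of all genes. Prdx1 followed at 248 TPM, Txnrd1 at 100 TPM and Gclm at 77.6 TPM. Nos2, at 66.0 TPM, and Srxn1, at 52.3 TPM, were in the middle of the order. Sod2 had a mean of 30.6 TPM, Gclc 18.3 TPM, Nqo1 11 TPM and Slc7a11 6.21 TPM. The genes also differed in how much they varied. The highest library was 1.16 times the lowest for Gclc and 25.9 times for Nos2, with Hmox1 at 2.73 times. Replicate 2 of CAP at day 6 was the lowest of all 12 libraries for 7 of the 10 genes, Hmox1, Nqo1, Gclm, Gclc, Slc7a11, Prdx1 and Nos2, and the highest for Txnrd1. In that library the keratin gene Krt10 alone reached 40801 TPM and the 10 most abundant genes held 14.1% of all TPM, against 8.27% to 11.3% in the others.

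**Figure D1:**
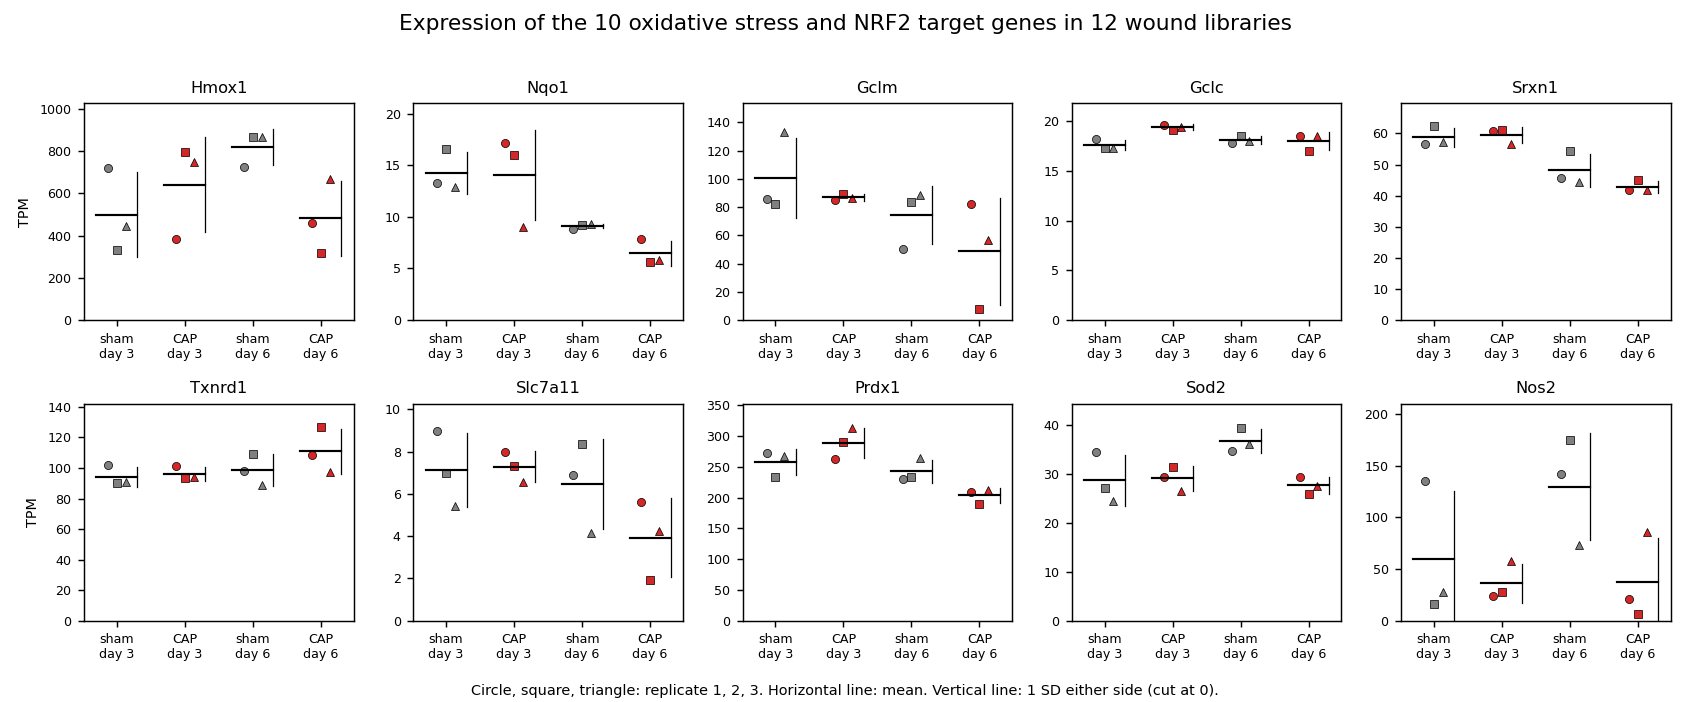
TPM of each of the 10 genes in the 12 libraries, 1 panel per gene with its own axis from 0, grey for sham and red for CAP. Points are libraries, horizontal lines are means and vertical lines are 1 SD either side of the mean. Hmox1 spans 318 to 867 TPM, Nos2 spans 6.74 to 175 TPM, and Gclc stays between 17.0 and 19.6 TPM.

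A gene counted as past the threshold with an unadjusted p under 0.05 by limma and a difference of at least 2-fold on the scale log2(TPM + 0.1) (the cut-offs are those of the study, the test and the scale are not). At day 3, no member was past it between CAP and sham, where 1.58% of 18330 genes were. None had an unadjusted p under 0.05, against 6.6% of all genes, and by the exact permutation test none went below 0.1, the smallest p that 3 libraries against 3 allow. Differences were above 0 for 7 members and below 0 for 3, with a median of 0.03 on the log2 scale against -0.05 for all genes. At day 6, 1 member, Nos2, fell past the threshold in CAP-treated wounds, where 2.34% of 18323 genes did, and 0 rose, against 1.46% of all genes. The log2 difference was below 0 for 9 of 10 members, all but Txnrd1, with a median of -0.46 against -0.12 for all genes. An unadjusted p under 0.05 was reached by 5 members, all lower with CAP (Hmox1, Nqo1, Prdx1, Sod2 and Nos2), against 12.5% of all genes in that direction. The CAP libraries lay wholly below the sham libraries for 4 of them, all but Nos2, against 18% of all genes. With the Benjamini-Hochberg adjustment no member had an adjusted p under 0.05 at day 3 or day 6, and of all genes 3 did at day 3 (0.0164%) and 0 at day 6, where 3517 had an unadjusted p under 0.05.

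The count of lower values at day 6 moved with the scaling of the libraries. After quantile normalization, the median of all genes went from -0.12 to 0.00, the members' median was -0.32, and 8 of 10 members were below 0. An unadjusted p under 0.05 was then left for 3, Hmox1, Sod2 and Nos2. With median-ratio scaling it was left for 4, with Nqo1 added. Without replicate 2 of CAP at day 6, the members' median was -0.27, 8 of 10 were below 0 and 3 had an unadjusted p under 0.05. The 5 members became 3 without replicate 1 of sham, 1 without replicate 2 and 2 without replicate 3.

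**Figure D2:**
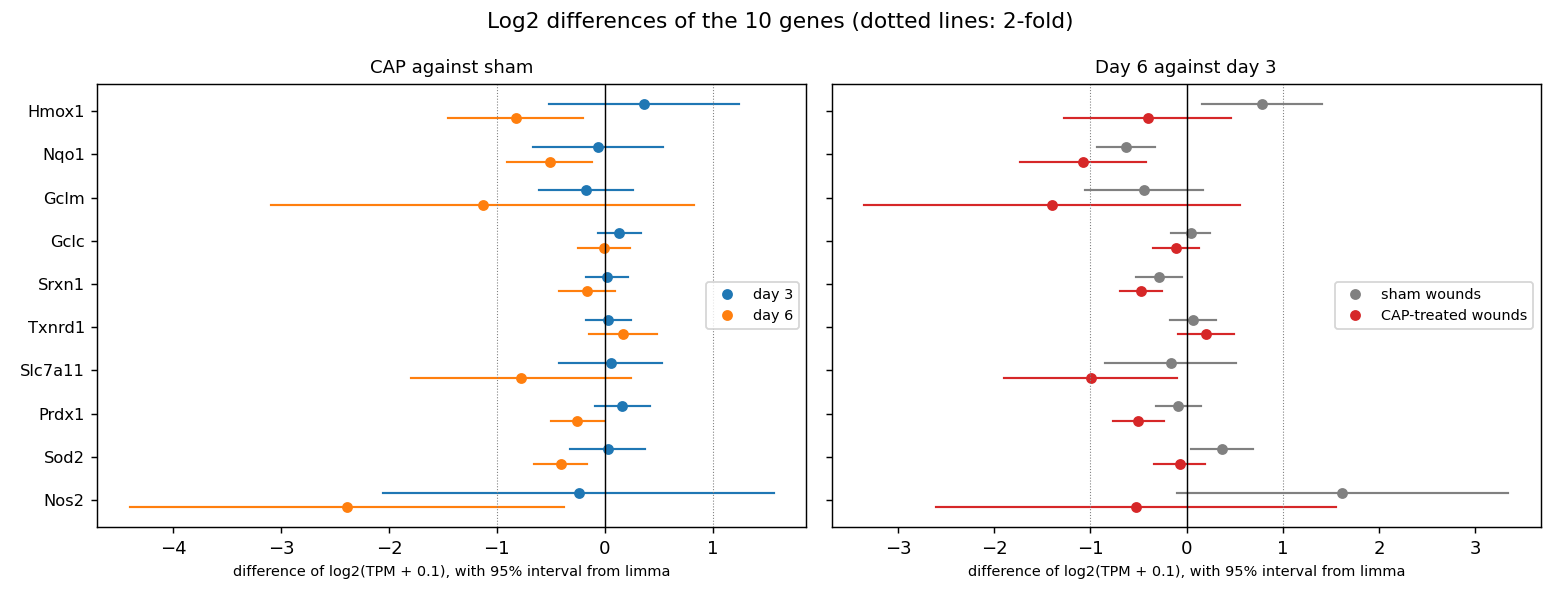
Log2 differences of the 10 genes with 95% intervals from limma, CAP against sham at day 3 and day 6 on the left, day 6 against day 3 in sham and in CAP-treated wounds on the right. Dotted lines mark 2-fold. At day 3 every interval on the left includes 0. For day 6, the intervals of Hmox1, Nqo1, Prdx1, Sod2 and Nos2 lie below 0.

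Hmox1 encodes heme oxygenase 1, which opens the heme ring and releases iron, biliverdin and carbon monoxide (chr8:75093621-75100589, plus strand, ENSMUSG00000005413). At day 3, the sham libraries held 721, 330.3 and 445 TPM and the CAP libraries 383, 794 and 747 TPM. These groups overlapped, and the log2 difference was 0.37 with a 95% interval of -0.51 to 1.25 (limma, adjusted p = 0.932). At day 6, the sham libraries held 722, 867 and 867 TPM and the CAP libraries 458, 318 and 669 TPM. Every CAP library was below every sham library, by 1.77-fold on average (log2 difference -0.83, SE 0.26, limma, unadjusted p = 0.0164, adjusted p = 0.218), and the exact permutation p was 0.1. Without replicate 3 of CAP the difference was -1.10 and past the threshold, and without replicate 2 of CAP it was -0.56. From day 3 to day 6, Hmox1 was 1.72-fold higher in sham wounds, with no overlap (limma, adjusted p = 0.2). The log2 difference was 1.09 and past the threshold without replicate 1 of sham at day 3, and 0.53 without replicate 2 of that group. In CAP-treated wounds it was 1.33-fold lower, with overlap (limma, adjusted p = 0.664). The difference between the CAP effects of the 2 days was tested as an interaction over all 12 libraries. It was -1.19 for Hmox1 (SE 0.50, 95% interval -2.29 to -0.09, limma, unadjusted p = 0.0361, adjusted p = 0.423), the 1 member past the threshold, where 2.54% of 19046 genes were past it in that direction. That call was lost when any of 8 of the 12 libraries was left out. The unadjusted p was then between 0.058 and 0.090 with the difference between -1.19 and -0.93, and these libraries were replicates 2 and 3 of both groups at day 3, replicates 2 and 3 of sham at day 6, and replicates 1 and 2 of CAP at day 6.

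Of 10 genes of the heme and iron list, 3 were lower past the threshold in the interaction, where 2.54% of all genes were, and 0 higher, where 2.07% were. The ferritin subunits store the iron that heme breakdown frees, and both had CAP effects that differed between the days, Fth1 by -1.33 (limma, unadjusted p = 0.0208) and Ftl1 by -1.39 (limma, unadjusted p = 0.0299). Hpx, the heme-binding hemopexin, differed by -1.17 at levels of 0.70 to 1.82 TPM per group. Leaving out 1 library ended the call for Fth1 in 3 of 12 cases, for Ftl1 in 5 and for Hpx in 10, and the adjusted p was 0.423 for the ferritins and 0.430 for Hpx. Fth1 held 3349, 2175 and 2931 TPM in sham and 2769, 4246 and 6125 TPM in CAP at day 3. At day 6, Fth1 held 3933, 4926 and 5298 TPM in sham and 2318, 2022 and 4626 TPM in CAP. As for Hmox1, the mean was higher with CAP at day 3 and lower with CAP at day 6, and in both genes the groups overlapped at day 3. At day 3 Hpx was the only gene of the list past the threshold, 2.40-fold higher with CAP (limma, adjusted p = 0.50), in a comparison where 0.426% of all genes were higher past it, and at day 6 none was. The day 3 log2 difference of Hpx, 1.27, went down to 0.73 under the other settings, less than 2-fold. Its interaction lay between -1.27 and -0.66 under them.

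Red cell genes stood beside this pattern. Here 6 erythroid marker genes, globins and Alas2 among them, summed to between 514 and 753 TPM in sham and between 2357 and 2803 TPM in CAP at day 3. The day 6 sums were between 2113 and 5622 TPM in sham and between 716 and 3184 TPM in CAP. Of the 5 erythroid genes that passed the filter, 5 were higher with CAP past the threshold at day 3, where 0.426% of all genes were. An adjusted p under 0.05 by limma was reached by 3 of them, and by 3 of all genes. With CAP at day 6, 0 were past the threshold. From day 3 to day 6 in sham wounds, 5 were higher, each with an adjusted p under 0.05, where 2.75% of all genes were past the threshold. In the interaction 5 were lower, where 2.54% of all genes were. Slc4a1, the other gene, was at or under 0.779 TPM in every library. The sum of 9 macrophage marker genes was between 5115 and 7092 TPM in sham and between 5566 and 10959 TPM in CAP at day 3. Lyz2 alone held 3340 to 7576 TPM of that CAP sum. Of the 9 genes, 6 had log2 differences below 0 at day 3, with Ccr2 at -1.33 past the threshold and C1qa at -0.98. Of all 18330 genes, 212 were lower past the threshold at day 3. At day 6 the sum was between 8313 and 12252 TPM in sham and between 5008 and 10859 TPM in CAP. In these bulk samples, fewer cells of a type and less RNA per cell cannot be told apart, and the part of either cell type in the Hmox1 values was not tested.

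**Figure D3:**
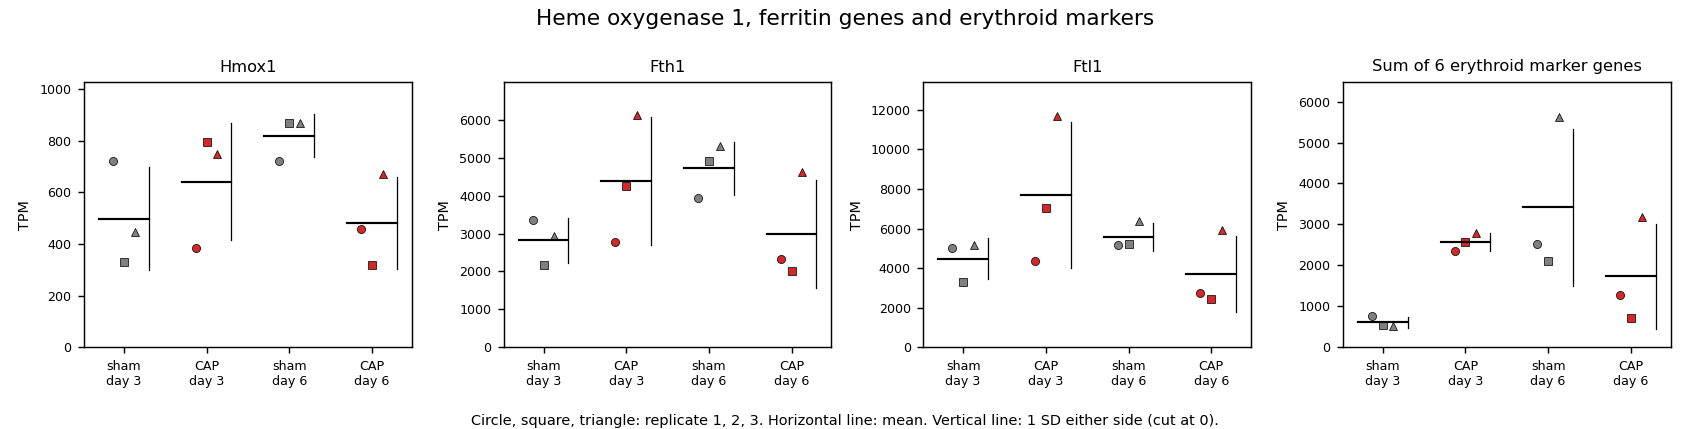
TPM of Hmox1, of the ferritin genes Fth1 and Ftl1, and of the sum of 6 erythroid marker genes in the 12 libraries, grey for sham and red for CAP, with the mean and 1 SD either side. In all 4 panels the CAP mean is above the sham mean at day 3 and below it at day 6. The erythroid sums of the groups do not overlap at day 3, and in the other panels the groups overlap at day 3.

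Nqo1 encodes NAD(P)H quinone dehydrogenase 1, the classic target of NRF2 (chr8:107388225-107403206, minus strand, ENSMUSG00000003849). At day 3, it was at 13.3, 16.6 and 12.9 TPM in sham and at 17.1, 16.0 and 9.04 TPM in CAP, with overlap (log2 difference -0.06, 95% interval -0.67 to 0.54). At day 6, it was at 8.87, 9.26 and 9.27 TPM in sham and at 7.87, 5.64 and 5.85 TPM in CAP. The day 6 groups did not overlap, and CAP was 1.42-fold lower (SE of the log2 difference 0.17, limma, unadjusted p = 0.0188, adjusted p = 0.220). Every day 6 library was also below every day 3 library of its own treatment. In CAP-treated wounds Nqo1 fell 2.1-fold from day 3 to day 6 (log2 difference -1.07, SE 0.27, limma, unadjusted p = 0.0063, adjusted p = 0.282). It was the 1 member past the threshold in that comparison, against 1.9% of 18906 genes in that direction. In sham wounds the log2 difference was -0.63 (SE 0.13, limma, unadjusted p = 0.0015, adjusted p = 0.0549), under 2-fold. The difference between the days was not shown to differ between the treatments, with an interaction of -0.45 (95% interval -1.15 to 0.26). The call in CAP-treated wounds lies near 2-fold. The difference was between -0.98 and -0.90 without replicate 1 or 2 of CAP at day 3 or without replicate 2 of CAP at day 6, and it was -0.98 with a pseudocount of 1 TPM, each time with an unadjusted p under 0.05.

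Glutathione is made in 2 steps, and the first is carried out by a catalytic subunit, Gclc, with a modifier subunit, Gclm, that eases feedback inhibition. Slc7a11 encodes xCT, which with its partner Slc3a2 forms the cystine importer that supplies the cysteine. Gclc (chr9:77754535-77794485, plus strand) was the steadiest of the set. Its libraries held 18.2, 17.3 and 17.3 TPM in sham and 19.6, 19.1 and 19.4 TPM in CAP at day 3, and 17.8, 18.5 and 17.9 TPM in sham and 18.5, 17.0 and 18.5 TPM in CAP at day 6. The CAP libraries were above the sham libraries at day 3, as in 2.86% of all genes, with a log2 difference of 0.14 (95% interval -0.06 to 0.34, limma, unadjusted p = 0.151). That difference was 0.20 with an unadjusted p of 0.0415 after quantile normalization. At day 6 the log2 difference was -0.01, with a 95% interval of -0.25 to 0.23, and the sign turned with the scaling.

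Gclm (chr3:122245557-122270732, plus strand) held 85.8, 82.5 and 133 TPM in sham and 84.8, 89.3 and 86.7 TPM in CAP at day 3. At day 6 it held 50.6, 83.8 and 88.3 TPM in sham and 82.1, 7.61 and 56.6 TPM in CAP. The single value of 7.61 TPM, in replicate 2 of CAP, set a wide interval around the day 6 log2 difference of -1.13 (95% interval -3.09 to 0.83, limma, adjusted p = 0.464). Without that library the interaction for Gclm was 0.09, where it was -0.95 with it. A processed pseudogene, Gm6061 (chr3:122256728-122257219), lies on the same strand within Gclm and shares 244 bases with exon 3 of a non-coding Gclm transcript, Gclm-202. It was added after its values were seen. In that library Gm6061 was at 237 TPM, the highest of all, and between 57.9 and 133 TPM in the other 11. How the authors' counting divided reads between the pair was not tested, and the low Gclm value is uncertain for that reason. Of the 31-base stretches of Gclm transcripts, 5.61% also occur in other genes, most of them in Ppia (3.55%).

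**Figure D4:**
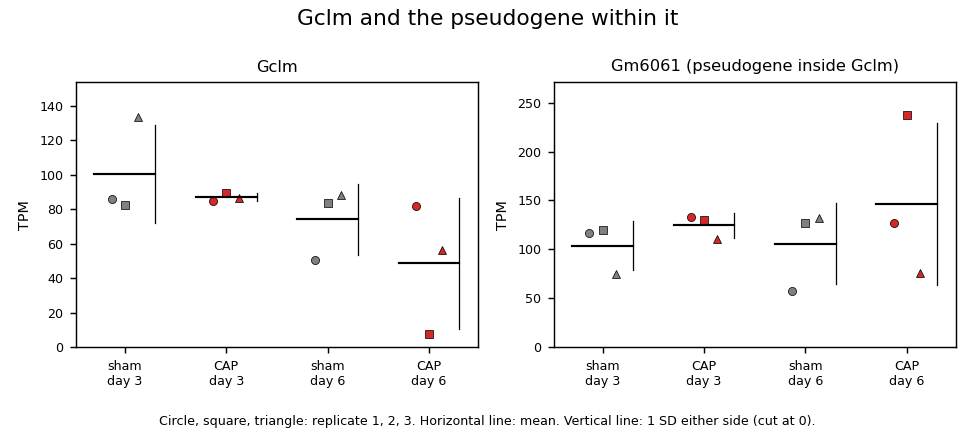
TPM of Gclm and of the pseudogene Gm6061 inside it in the 12 libraries, grey for sham and red for CAP, with the mean and 1 SD either side. In replicate 2 of CAP at day 6 (square), Gclm is at its lowest, 7.61 TPM, and Gm6061 at its highest, 237 TPM.

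Slc7a11 (chr3:49892526-50443614, minus strand) was low throughout. It held 8.97, 7.0 and 5.44 TPM in sham and 8.01, 7.35 and 6.54 TPM in CAP at day 3, and 6.89, 8.37 and 4.16 TPM in sham and 5.64, 1.92 and 4.25 TPM in CAP at day 6. The sham and CAP values overlapped on both days. In CAP-treated wounds every day 6 library was below every day 3 library, and the log2 difference of -1.0 fell just short of 2-fold (SE 0.38, limma, unadjusted p = 0.0344, adjusted p = 0.381). Its partner Slc3a2 was more abundant, at 180, 209 and 184 TPM in sham and 154, 125 and 167 TPM in CAP at day 6. The CAP libraries were the lower ones for Slc3a2, by 1.29-fold (limma, unadjusted p = 0.0302, adjusted p = 0.234). Of 22 further glutathione genes, 2 were higher past the threshold at day 6 and 0 lower, where 1.46% and 2.34% of all genes were. These were Ggct, a gamma-glutamylcyclotransferase that takes part in glutathione turnover, at 2.2-fold (limma, adjusted p = 0.205), and Mgst2, a microsomal glutathione transferase, at 2.25-fold (limma, adjusted p = 0.206). Ggct held 84.9, 112 and 93.5 TPM in sham and 212, 259 and 173 TPM in CAP, with no overlap, and its log2 difference was 0.99 without replicate 2 of CAP, just under 2-fold. That of Mgst2 was 0.96 without replicate 1 of CAP, also under 2-fold. Keratinocyte marker genes summed to between 32529 and 40079 TPM in sham and between 48491 and 99622 TPM in CAP at day 6, with Krt1 and Krt10 of the 9 past the threshold, and their part in the Ggct values was not tested. At day 3 none of the 22 glutathione genes was past the threshold. In the interaction, Ggct had a log2 difference of 1.17 (limma, unadjusted p = 0.0047), and Gsr, the reductase that recycles oxidized glutathione, had a log2 difference of -1.05 (limma, unadjusted p = 0.0372). Of all genes, 2.07% were higher and 2.54% lower past the threshold there. The Gsr call was lost with median-ratio scaling (-0.9988) and quantile normalization (-0.9968). Leaving out 1 library ended it in 8 of 12 cases, and ended the Ggct call in 2. From day 3 to day 6 in CAP-treated wounds 1 of the 22 was lower past the threshold, where 1.9% of all genes were. It was Gsta4, a glutathione transferase for lipid aldehydes (2.47-fold, limma, adjusted p = 0.335). That call was lost without replicate 2 of CAP at day 3 (log2 difference -1.06, limma, unadjusted p = 0.053) or replicate 3 of CAP at day 6 (-0.98). In sham wounds none of the 22 was past the threshold, where 4.73% of all genes were. Gsta4 was 1.91-fold lower there with an adjusted p of 0.0319 by limma.

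The thioredoxin branch was abundant and had no call with CAP on either day. Txnrd1, the cytosolic thioredoxin reductase, held 102, 90.0 and 90.6 TPM in sham and 101, 93.4 and 93.9 TPM in CAP at day 3 (chr10:82833951-82897712, plus strand). At day 6 it held 97.7, 109 and 88.7 TPM in sham and 108, 126.98 and 97.5 TPM in CAP. It was the 1 member with a higher mean in CAP at day 6, with overlapping groups and a log2 difference of 0.17 (95% interval -0.15 to 0.48, limma, adjusted p = 0.502). Eid3 lies within the Txnrd1 locus on the same strand.

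Prdx1, a peroxiredoxin that reduces hydrogen peroxide (chr4:116685544-116700822, plus strand), held 272, 234 and 267 TPM in sham and 264, 291 and 313 TPM in CAP at day 3. At day 6 it held 230.4, 234 and 264 TPM in sham and 209, 189 and 213 TPM in CAP. The day 6 groups did not overlap, with CAP 1.19-fold lower (limma, unadjusted p = 0.0464, adjusted p = 0.254). In CAP-treated wounds Prdx1 was 1.42-fold lower at day 6 than at day 3, again with no overlap (limma, unadjusted p = 0.0029, adjusted p = 0.276). In sham wounds the same difference was 1.06-fold, with overlap. The interaction was -0.42 (95% interval -0.73 to -0.11, limma, unadjusted p = 0.0132, adjusted p = 0.423). Of the 31-base stretches of Prdx1 transcripts, 15.2% occur in other genes, most of them in Gm21399.

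Srxn1 encodes sulfiredoxin, which repairs over-oxidized peroxiredoxins (chr2:152105516-152111376, plus strand). It held 56.7, 62.3 and 57.3 TPM in sham and 60.8, 61.0 and 56.7 TPM in CAP at day 3, and 45.6, 54.3 and 44.5 TPM in sham and 41.8, 45.0 and 41.8 TPM in CAP at day 6. Sham and CAP overlapped on both days, while every day 6 library was below every day 3 library in both treatments. The log2 difference between the days was -0.29 in sham (SE 0.10, limma, unadjusted p = 0.0228) and -0.47 in CAP (SE 0.09, limma, unadjusted p = 0.0014, adjusted p = 0.259). Of 10 further thioredoxin and peroxiredoxin genes, none was past the threshold in any of the 5 comparisons, and at day 6 an unadjusted p under 0.05 was reached by 4, all lower with CAP, against 12.5% of all genes in that direction.

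Sod2 converts mitochondrial superoxide to hydrogen peroxide (chr17:13006846-13040063, plus strand). It held 34.6, 27.2 and 24.5 TPM in sham and 29.4, 31.5 and 26.5 TPM in CAP at day 3, and 34.6, 39.5 and 36.1 TPM in sham and 29.4, 25.9 and 27.6 TPM in CAP at day 6. The day 6 groups were apart and CAP was 1.33-fold lower, the smallest p of the set for CAP against sham (log2 difference -0.41, SE 0.10, limma, unadjusted p = 0.0057, adjusted p = 0.207). In sham wounds Sod2 was 1.29-fold higher at day 6 than at day 3, with no overlap (limma, unadjusted p = 0.0316). In CAP-treated wounds the log2 difference between the days was -0.07 (95% interval -0.34 to 0.19). The interaction was -0.44 (95% interval -0.83 to -0.04, limma, unadjusted p = 0.033, adjusted p = 0.423). Of the 31-base stretches of Sod2 transcripts, 26.6% occur in other genes. Of Sod1, Sod3 and Cat, the other superoxide dismutases and catalase, none was past the threshold in any comparison. At day 6, an unadjusted p under 0.05 by limma was reached by 1 that was higher and 1 that was lower with CAP. Cat then held 82.2, 72.7 and 99.5 TPM in sham and 117, 122 and 111 TPM in CAP, wholly higher with CAP. Sod3 held 161, 108 and 137 TPM in sham and 98.7, 54.7 and 98.6 TPM in CAP, wholly lower, as were 18% of all genes.

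Nos2, which makes nitric oxide from arginine in large amounts once induced, had the largest difference of the set (chr11:78920787-78960254, plus strand). At day 3, the sham libraries held 135, 16.7 and 27.6 TPM and the CAP libraries 23.6, 27.5 and 57.8 TPM. Replicate 1 of sham stood far above the other 5, and without it the log2 difference turned from -0.24 to 0.64. At day 6, the sham libraries held 142, 175 and 73.1 TPM and the CAP libraries 21.4, 6.74 and 85.8 TPM. Nos2 fell 5.24-fold with CAP at day 6 (log2 difference -2.39, SE 0.85, 95% interval -4.40 to -0.37, limma, unadjusted p = 0.0264, adjusted p = 0.229). The groups overlapped by 1 CAP library, replicate 3, that was above the lowest sham library, and the exact permutation p was 0.2. The call was lost without replicate 1 or 2 of sham or replicate 1 or 2 of CAP, with unadjusted p between 0.052 and 0.081. The difference was -1.5 without replicate 2 of CAP, the library that stands apart. Between the days, the log2 difference was 1.62 in sham wounds (95% interval -0.11 to 3.34, limma, unadjusted p = 0.062), and 2.50 without replicate 1 of sham at day 3 but 1.0 without replicate 2 of that group. In CAP-treated wounds it was -0.53 (95% interval -2.61 to 1.55). The interaction was -2.15 with a 95% interval of -4.98 to 0.69, so the effects of the 2 days were not shown to differ.

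Arginine is also the substrate of arginase 1, encoded by Arg1, which competes with nitric oxide synthases and marks alternatively activated macrophages, and it enters cells through the transporter Slc7a2. Arg1 held 681, 341 and 322 TPM in sham and 523, 1390.4 and 2057 TPM in CAP at day 3. At day 6 it held 914, 1479 and 844 TPM in sham and 323, 123 and 847 TPM in CAP. It was 2.71-fold higher with CAP at day 3 (limma, unadjusted p = 0.0306, adjusted p = 0.719) and 3.24-fold lower at day 6 (limma, unadjusted p = 0.0339, adjusted p = 0.238), with overlap on both days. The paper, from its day 3 comparison, lists ARG1 as downregulated in CAP-treated wounds, the opposite direction. The reason for this difference was not tested. The interaction for Arg1 was -3.14 (SE 0.93, limma, unadjusted p = 0.0065, adjusted p = 0.423). The day 3 call was lost without any of 4 of the 6 libraries, all but replicate 1 of each group, and the day 6 call without any of 5, all but replicate 3 of CAP. Slc7a2 held 11, 13.3 and 9.30 TPM in sham and 4.81, 3.79 and 8.90 TPM in CAP at day 6, with no overlap and a 2.01-fold lower level (limma, unadjusted p = 0.0161, adjusted p = 0.217). That call was lost with median-ratio scaling (log2 difference -0.90), with quantile normalization (-0.84), and without replicate 2 of sham or replicate 1 or 2 of CAP (-0.92 to -0.75). Of the 10 genes of nitric oxide and arginine handling other than Nos2, 1 was higher past the threshold at day 3, where 0.426% of all genes were, and 2 were lower at day 6, where 2.34% were. All 10 had log2 differences below 0 at day 6, with a median of -0.37 against -0.12 for all genes. In sham wounds 3 of them were higher past the threshold at day 6 than at day 3, where 2.75% of all genes were, Slc7a2 at 2.55-fold (limma, adjusted p = 0.019), Nos3, the endothelial synthase, at 2.33-fold (limma, adjusted p = 0.0217), and Arg1 at 2.48-fold (limma, adjusted p = 0.098). In that comparison 6 of 6 endothelial marker genes were higher with an unadjusted p under 0.05 by limma, against 16.5% of all genes in either direction. Of the 6, 4 were past the threshold, and their part in the Nos3 values was not tested.

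At day 6, marker genes of neutrophils, macrophages and keratinocytes, which can express Nos2, and of endothelial cells differed in direction. Of all genes, 2.34% were lower and 1.46% higher past the threshold there. The 8 neutrophil marker genes summed to between 1876 and 3508 TPM in sham and between 354 and 2752 TPM in CAP, and of 6 tested all had log2 differences below 0, with Mmp9 past the threshold and no other with an unadjusted p under 0.05. For the 9 macrophage genes all 9 were below 0, with Ccr2 past the threshold. An unadjusted p under 0.05 was reached by 3 of them, against 12.5% of all genes in that direction. Of the 9 keratinocyte genes, 7 were above 0, with Krt1 and Krt10 past the threshold. The 6 endothelial genes summed to between 233 and 320.0 TPM in sham and between 75.3 and 197 TPM in CAP, with Pecam1, Cdh5 and Emcn past the threshold. Of the neutrophil markers, Mpo was at 0.0001 TPM, the floor of the values, in 8 of the 12 libraries. In CAP at day 6 the neutrophil sums were 2752, 354 and 1264 TPM in replicates 1 to 3. Nos2 was at 21.4, 6.74 and 85.8 TPM there. Of the sum in replicate 1, S100a8 held 962 TPM and S100a9 1639 TPM. Csf3r, at 37.1, 26.0 and 142 TPM, was highest in replicate 3, as were Cxcr2, Retnlg, Mmp9, Ly6g and Nos2. The part of these cells in the Nos2, Arg1 and Slc7a2 values was not tested.

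**Figure D5:**
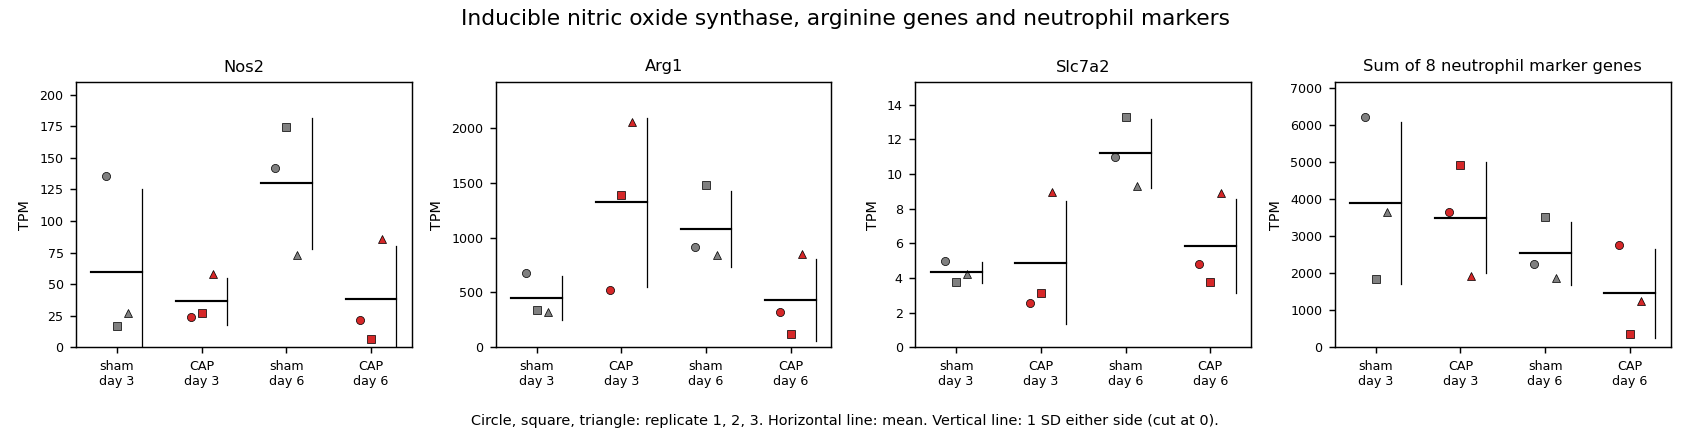
TPM of Nos2, Arg1, Slc7a2 and the sum of 8 neutrophil marker genes in the 12 libraries, grey for sham and red for CAP, with the mean and 1 SD either side (cut at 0). Nos2 spans 73.1 to 175 TPM in sham and 6.74 to 85.8 TPM in CAP at day 6, with replicate 3 of CAP (triangle) above the lowest sham library.

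Between day 3 and day 6 in sham wounds, no member was past the threshold, where 4.73% of 19123 genes were. An unadjusted p under 0.05 was reached by 4 members, Hmox1 and Sod2 higher and Nqo1 and Srxn1 lower, against 16.5% of all genes. Leaving out 1 library changed these 4 to between 1, without replicate 3 of sham at day 6, and 5, without replicate 1 of sham at day 3, with 2 without replicate 2 or 3 at day 3 or replicate 2 at day 6. The same 4 did not overlap between the days, against 21.9% of all genes. No member had an adjusted p under 0.05, while 470 of all genes did, 2.46%. In CAP-treated wounds, the log2 difference was below 0 for 9 of 10 members, all but Txnrd1, with a median of -0.49 against -0.05 for all genes. An unadjusted p under 0.05 was reached by 4, Nqo1, Srxn1, Slc7a11 and Prdx1, all lower at day 6, against 6.15% of all genes in that direction. The day 6 libraries lay wholly below the day 3 libraries for 6 members, with Gclm and Gclc added, against 9.83% of all genes. In the interaction, 9 of 10 members were below 0, with a median of -0.44 against -0.06 for all genes. For 3 of them, Hmox1, Prdx1 and Sod2, the unadjusted p was under 0.05, against 5.92% of all genes in that direction. These 3 became 1 without replicate 2 or 3 of sham or replicate 2 of CAP at day 3, or replicate 2 of either group at day 6, and 2 without replicate 1 of CAP at day 3 or replicate 3 of sham at day 6. Of the members and of all genes, 0 had an adjusted p under 0.05 by limma, with 2179 of all genes at an unadjusted p under 0.05.

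The regulators of the pathway showed no call in any of the 5 comparisons, for any of 11 genes of the NRF2 control list. With CAP at day 6, 2 of the 11 had an unadjusted p under 0.05 by limma, both higher. Of all 18323 genes, 3517 did, in either direction. The CAP libraries lay wholly above the sham libraries for 2, Cul3 and Nfe2l3. Cul3 held 71.1, 90.2 and 84.2 TPM in sham and 113, 121 and 93.8 TPM in CAP. Nfe2l3 held 12.5, 17.0 and 15.0 TPM in sham and 25.3, 21.9 and 17.3 TPM in CAP. Nfe2l2, which encodes NRF2, held 172, 155 and 159 TPM in sham and 155, 180 and 192 TPM in CAP at day 3, and 151, 173 and 165 TPM in sham and 151, 117 and 153 TPM in CAP at day 6. The groups overlapped on both days. The log2 difference with CAP was 0.11 at day 3 (95% interval -0.14 to 0.36) and -0.23 at day 6 (95% interval -0.54 to 0.09). Keap1, its inhibitor, stayed between 43.9 and 53.8 TPM, with log2 differences of -0.11 at day 3 and -0.14 at day 6. Bach1, the repressor of Hmox1, stayed between 33.6 and 64.6 TPM, with log2 differences of -0.11 at day 3 and -0.27 at day 6. NRF2 is controlled mainly through its protein, which transcript levels do not measure. Over all 9 lists of the wider pathway, 94 genes of which 91 passed the filter, 2 were higher and 0 lower past the threshold with CAP at day 3. Of all genes 0.426% were higher there, and 212 of 18330 were lower. At day 6, 2 were higher and 2 lower, where 1.46% and 2.34% of all genes were. An unadjusted p under 0.05 by limma was reached at day 6 by 8 that were higher and 16 that were lower, against 12.5% of all genes lower. The CAP libraries lay wholly above the sham libraries for 10 and wholly below for 12, against 18% of all genes below. From day 3 to day 6, 4 of 92 were higher in sham wounds, where 2.75% of all genes were, with Hp, which encodes the hemoglobin-binding haptoglobin, beside the 3 arginine genes (2.46-fold, limma, adjusted p = 0.0313). In CAP-treated wounds 2 of 91 were lower, where 1.9% of all genes were, Gsta4 and the esterase gene Esd (2.04-fold, limma, adjusted p = 0.276). The Esd call was lost with median-ratio scaling and with quantile normalization (log2 difference -0.98 in both), and when any of 3 of the 6 libraries was left out. In the interaction 1 was higher and 7 were lower, where 2.07% and 2.54% of all genes were. Beside those already given, the 7 included Osgin1, an NRF2 target with a growth-inhibiting product, at -1.14 (limma, unadjusted p = 0.0226), and Cyba, the p22phox subunit of the NADPH oxidases, at -1.06 (limma, unadjusted p = 0.0327). Of these 8 calls, the call for Arg1 alone held whichever of the 12 libraries was left out.

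The genes closest to each member in pattern were sought among 16169 genes whose 12-library mean reached 1 TPM, by the root mean square difference of centred log2 values over the 12 libraries. For Hmox1 they were Tmem268 (0.17), Gab2 (0.21) and Nek6 (0.21). For Nqo1 they were Akap6 (0.16), Smtnl2 (0.17) and Enah (0.19), and for Srxn1 Tuba1c (0.06), Aldoa (0.10) and Map7d1 (0.10). No member was among the 3 closest genes of another. For Gclm the closest were Peak1 (0.42), Prelid2 (0.45) and AI662270 (0.52), all 3 lowest in replicate 2 of CAP at day 6, as Gclm was. For Nos2 they were Apln (0.48), Hdc (0.50) and Prokr2 (0.51), which were likewise lowest in that library. These genes were picked by the same 12 values, so the shared lowest library is no separate result.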

How the data were processed

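Wound RNA was sequenced in 12 libraries (SureSelect XT HS2 mRNA kit, paired-end), and reads were converted with bcl2fastq and trimmed with Trimmomatic 0.36 (mm10), as the submitters' processing notes list. From these, the authors used StringTie to estimate TPM and deposited 1 table of 55487 genes for each library. TPM keeps no depth, so counting error is unknown, and precision rests on 3 libraries per group. Each table sums to between 1000003.08 and 1000003.23, with 18533 to 19325 genes at 0.3 TPM or more. Pearson's r of log2 values was 0.956 to 0.975 within groups and 0.934 to 0.975 between groups. Keratinocyte markers were abundant in every library.

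As log2(TPM + 0.1), values were tested across all genes with limma 3.58.1 (intensity trend, R 4.3.3), with Benjamini-Hochberg adjustment. Genes needed a mean of 0.3 TPM in both groups for CAP against sham, and over the libraries compared otherwise. An exact 2-sided permutation test was made for single genes. The fit was tested on simulated data. Alternatives were a pseudocount of 1 or 0.01 TPM, no filter, 0.3 TPM in every library, a joint fit, the replicate number as a block, median-ratio scaling, quantile normalization, and leaving out each library. Coordinates are those of the tables, and match GENCODE M21 (GRCm38) for 54863 genes. Tables and figures were made in Python 3.11.15 (pandas 2.3.3, matplotlib 3.10.9, numpy 2.4.6).

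The 10 genes and all lists were chosen with earlier results of these data known. Named are the 10 genes, of each pathway list at most 4 genes past the threshold per comparison, the regulators Nfe2l2, Keap1 and Bach1, Slc3a2, the 3 genes most alike to a member, and marker genes beside a result. The values of Cul3, Nfe2l3, Sod3 and Cat were added after they were seen. The lists cover NRF2 control, glutathione, thioredoxin and peroxiredoxin, superoxide dismutase and catalase, NADPH supply, heme and iron, other NRF2 targets, NADPH oxidase and peroxidase, and nitric oxide and arginine. One gene of the erythroid marker list is not reported here, and the sum leaves it out.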

Additional observations from a re-analysis of the deposited data

Results flagged for a closer look

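The CAP effect on Hmox1 differed between the days by the unadjusted test, in a call that leaving out any of 8 of the 12 libraries ended. Its log2 difference was 0.37 at day 3 and -0.83 at day 6, and the interaction term over all 12 libraries was -1.19 (SE 0.50, limma, unadjusted p = 0.0361, adjusted p = 0.423). The interval of the term, -2.29 to -0.09, lies close to 0 at its upper end. At day 3, 2 of 3 CAP libraries were above all sham libraries, and at day 6, 3 of 3 were below all sham libraries.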

How the results depend on the processing

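Of 606 single-gene differences under other settings, 583 kept their direction and their side of the threshold, 18 lost the call, 2 gained one and 3 reversed. Reversed were Nqo1 at day 3 with quantile normalization (0.0114) and Gclc at day 6 with median-ratio scaling (0.10) and quantile normalization (0.13). With a pseudocount of 1 TPM, all genes past the threshold numbered 154 in place of 290 at day 3, 385 in place of 697 at day 6, 444 in place of 904 between the days in sham, 331 in place of 666 in CAP, and 574 in place of 877 in the interaction. Without a filter the day 3 count was 568, and with 0.3 TPM in every library the counts between the days were 592 in sham and 432 in CAP. At day 6 the calls over all genes were 268 higher and 429 lower, and became 386 and 308 with median-ratio scaling and 406 and 244 with quantile normalization. At day 3 they were 78 and 212, and 101 and 160 with quantile normalization. Members lower between the days in CAP numbered 1, and became 0 with a pseudocount of 1 TPM and 2 with 0.01 TPM (Slc7a11 added). Pathway genes higher at day 3 numbered 2, and 1 with a pseudocount of 1 TPM or the joint fit. Those lower at day 6 numbered 2, and 1 with a pseudocount of 1 TPM and with either scaling. Between the days in CAP, 2 were lower and 0 higher, and the joint fit gave 4 lower, median-ratio scaling 1 lower and 2 higher, and quantile normalization 2 higher. In the interaction 1 was higher, and 2 with either scaling. The cause of these changes was not tested.

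The replicate number was also fitted as a block. Deviations from the group means had r from -0.17 to 0.289 between same-numbered libraries, and from -0.274 to 0.25 between others. For CAP against sham, same-numbered libraries had r of -0.17, 0.033 and 0.02 at day 3. At day 6 they had 0.032, 0.117 and 0.111, with all others below 0. Whether the numbers pair samples cannot be told from these values. With the block, Nos2 became higher past the threshold between the days in sham, 1 member in place of 0. Pathway genes past the threshold became 1 higher at day 3, 1 lower at day 6, 4 lower between the days in CAP and 2 higher in the interaction.

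Leaving out each library in turn, members past the threshold ranged from 0 to 2 lower at day 6, 0 to 2 higher between the days in sham, 0 to 3 lower in CAP and 0 to 2 lower in the interaction. No member was past it at day 3. The calls gained, beside those of Hmox1 and the 2.50 of Nos2 in sham given above, were Slc7a11 at day 6 (-1.09) and in the interaction (-1.15) without replicate 1 of CAP at day 6, Slc7a11 (-1.32) and Gclm (-2.06) between the days in CAP without that library, Slc7a11 (-1.12) and Nos2 (-1.47) in CAP without replicate 3 of CAP at day 6, and Nos2 in the interaction without replicate 1 of sham at day 3 (-3.03) or replicate 3 of CAP at day 6 (-3.09). All genes past the threshold ranged from 204 to 510 at day 3, 311 to 1483 at day 6, 827 to 1093 in sham, 501 to 1077 in CAP and 543 to 1636 in the interaction. The highest of these counts at day 6 and in the interaction came without replicate 3 of CAP at day 6, and the lowest without replicate 2 of that group. Pathway genes ranged from 1 to 4 higher and 0 to 1 lower at day 3, 1 to 2 higher and 0 to 10 lower at day 6, 4 to 4 higher and 0 to 1 lower in sham, 0 to 3 higher and 1 to 9 lower in CAP, and 0 to 2 higher and 1 to 10 lower in the interaction. Directions turned at day 3 for Nqo1 (-0.23 to 0.22), Gclm (-0.30 to 0.0462), Srxn1 (-0.0070 to 0.0607), Txnrd1 (-0.0048 to 0.0903), Slc7a11 (-0.12 to 0.23), Sod2 (-0.0785 to 0.17), Nos2 (-0.86 to 0.64) and Bach1 (-0.19 to 0.038). They turned at day 6 for Gclc (-0.0303 to 0.0313), between the days in sham for Txnrd1 (-0.0133 to 0.14) and Slc7a11 (-0.38 to 0.12), in CAP for Nos2 (-1.47 to 0.36), and in the interaction for Gclm (-1.61 to 0.0945).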
